A study of Mus musculus with 12 samples.

Results

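The 44 genes whose symbol has the form Col, number, a, number (the collagen alpha chains) were taken from 47729 genes measured in adipose tissue of male wild-type C57BL/6J mice. The 12 libraries covered 4 fat depots with 3 libraries each: interscapular brown fat (BAT), retroperitoneal white fat (RWAT), inguinal white fat (IWAT) and epididymal white fat (EWAT). The design text gives an age of 6 to 10 weeks and a high-fat diet, and every depot had been surgically denervated. All groups therefore share strain, sex, genotype, diet and denervation, and an effect of denervation or of diet was not tested. RNA depleted of ribosomal RNA was sequenced as single-end reads. The labels do not say whether the 3 libraries of a depot came from separate mice, or whether 1 mouse gave several depots, so p-values measure the spread between these samples.

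Collagens are mostly secreted proteins, built from 3 alpha chains wound into a triple helix. Fibrillar collagens form the rope-like fibres of connective tissue, type IV collagens form the sheet of basement membranes that surrounds each fat cell and vessel, and type VI collagen forms beaded filaments between the sheet and the fibres. In fat, fibroblasts, adipocyte progenitors and fat cells all make collagens, and the matrix around fat cells is remodelled when fat expands on a rich diet.

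Library totals ranged from 12933516 to 21106554 expected counts. Zic1, a gene of brown fat precursors, ranged from 2.54 to 8.97 TPM (a level per transcript length, scaled to a fixed sum in each library) in BAT and reached at most 0.59 TPM in a white library. Ucp1, the uncoupling protein that defines thermogenic brown fat, was at 792, 0.21 and 1.02 TPM in the BAT libraries and between 0.02 and 8.68 TPM in the white libraries, so 2 of the 3 BAT libraries were within the range of white fat for this marker. The summed level of 7 adipocyte markers was low in EWAT 1 (1773 TPM) and reached 22726 TPM in IWAT 3, and 7 skeletal muscle markers summed to 433 TPM in RWAT 1 and 1807 TPM in RWAT 3, against 3.33 to 80.2 TPM in the other libraries. In bulk tissue, fewer cells of a type and less RNA per cell cannot be told apart.

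Collagens were abundant in all 4 depots, and libraries of 1 depot differed widely. Their summed level was 8756 ± 5315 TPM in BAT, 6689 ± 2859.6 TPM in RWAT, 6449.6 ± 2833 TPM in IWAT and 5673 ± 3947 TPM in EWAT (mean ± SD, n = 3 each). The highest and the lowest library were BAT 2 with 14827 TPM and EWAT 2 with 2688 TPM, which is 1.48% and 0.269% of their libraries' TPM, and all 4 depots overlapped. Collagens took between 1.12% and 4.92% of the expected counts of a library. Of the 44 genes, 17 had a mean above 10 TPM, 19 had a mean under 1 TPM, and Col9a1, a chain of the cartilage collagen IX, had 0 counts in all 12 libraries.

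**Figure D1:**
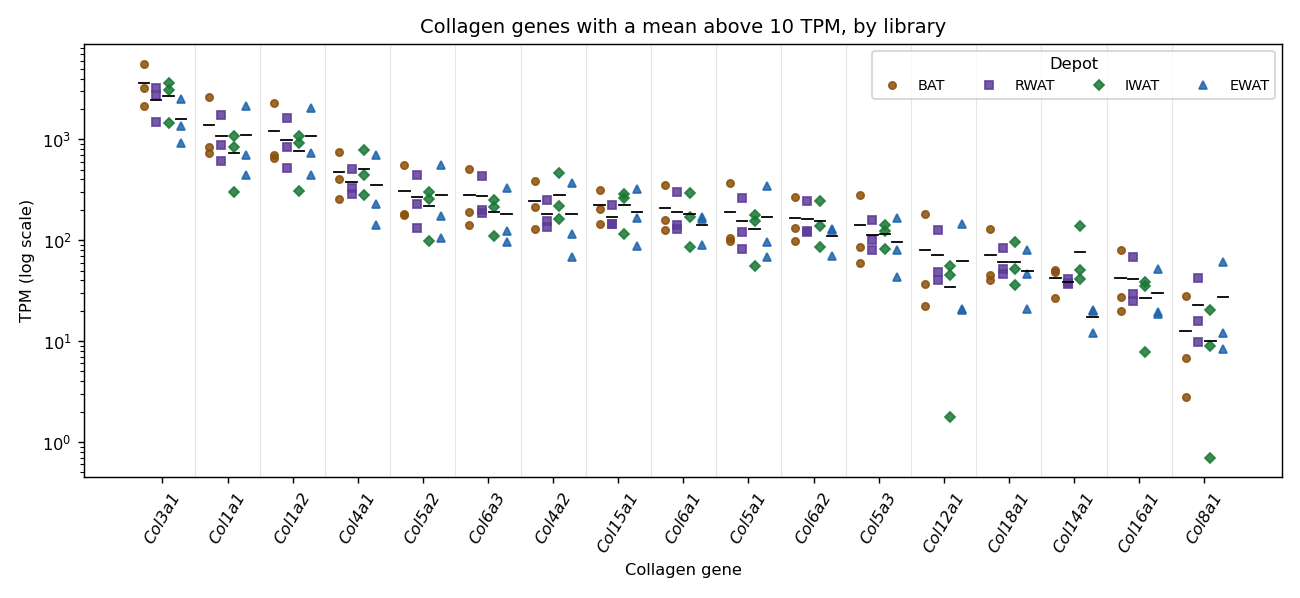
Deposited TPM (log scale) of the 17 collagen genes with a mean above 10 TPM, 1 point per library, with symbols by depot (n = 3 each). In 16 of the 17 genes the widest range within a depot, as a fold, is larger than the range of the 4 depot means. Single libraries spread more widely than means do, so these ranges are not like measures and their order is no test of depot differences.

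The 3 chains of the fibre-forming types I and III dominated. Col3a1 averaged 3641 ± 1794 TPM in BAT, 2479 ± 879 TPM in RWAT, 2711 ± 1129 TPM in IWAT and 1586 ± 818 TPM in EWAT. Col1a1, the more frequent chain of type I helices, averaged 1391 ± 1052 TPM in BAT, 1071 ± 585 TPM in RWAT, 739 ± 394 TPM in IWAT and 1094 ± 915 TPM in EWAT. Together with Col1a2, these chains made up 60.8% to 72.6% of the collagen TPM of a library. Col1a1 was at 737, 2605 and 832 TPM in BAT, 882, 1727 and 604 TPM in RWAT, 303, 846 and 1069 TPM in IWAT and 2141, 446 and 695 TPM in EWAT. The ranges of all 4 depots overlapped. Among the 17 abundant collagens, BAT 2 was the highest library for 12 and EWAT 1 for 2, while EWAT 2 or IWAT 1 was the lowest for 8 each. The median SD of log2 CPM (counts scaled to library size) within depots was 0.578 over these 17 genes and 0.626 over the 39 collagens that passed the low-count filter, against 0.435 over all 18942 genes that passed it.

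By class, fibrillar collagens made up most of the collagen pool in every library, and the shares of the classes were not tested. Fibrillar collagens held 78.5 ± 0.696% of collagen TPM in BAT, 75.4 ± 4.15% in RWAT, 71.9 ± 4.54% in IWAT and 75.6 ± 0.730% in EWAT. The type IV chains of the basement membrane held 8.39 ± 1.06% in BAT, 8.74 ± 1.46% in RWAT, 12.3 ± 2.41% in IWAT and 8.97 ± 1.38% in EWAT. The highest type IV shares were in IWAT 1 and IWAT 3, but IWAT 2, with 9.55%, lay below EWAT 1, with 10.5%, and RWAT 3, with 10.4%. The beaded filaments of type VI held 6.24% to 10.8% of collagen TPM over the 12 libraries. The multiplexins Col15a1 and Col18a1, basement membrane collagens that carry heparan or chondroitin sulfate, held 2.39% to 8.76%. The fibril-associated collagens, which sit on the surface of fibrils, held 1.25% to 3.29%. The short-chain network collagens held 0.0405% to 0.630%, with the lowest value in IWAT 1 and the highest in EWAT 1. Type VII, which anchors basement membranes to the matrix below, and the membrane-bound collagens each held less than 0.1%.

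**Figure D2:**
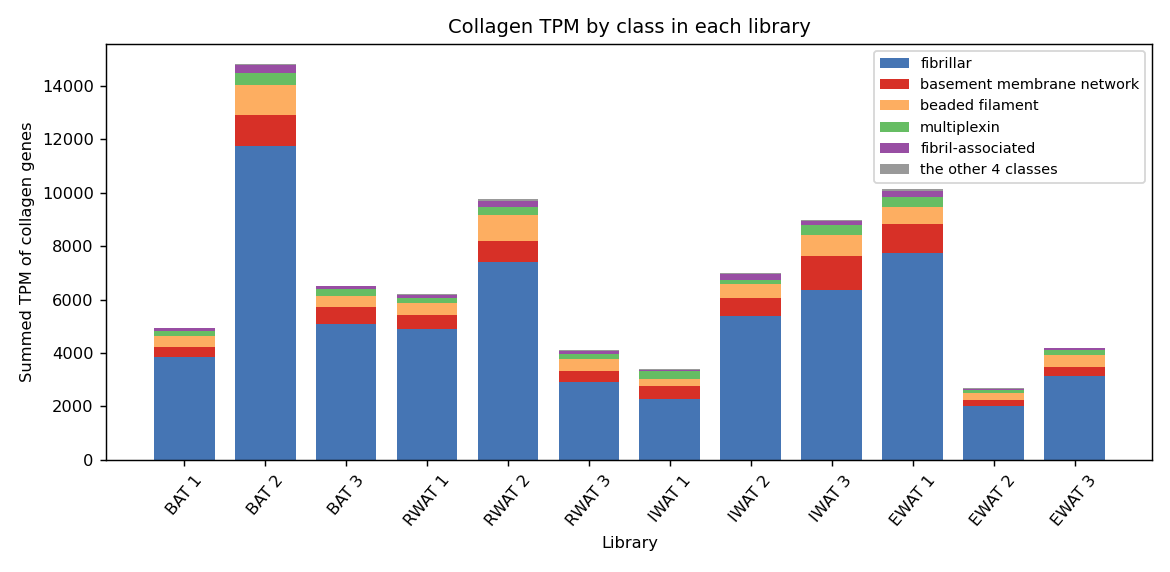
Summed TPM of the collagen genes in each of the 12 libraries, stacked by class. BAT 2 reaches 14827 TPM and EWAT 2 has 2688 TPM, and the fibrillar share stays between 67.8% and 79.2% of the collagen TPM of every library.

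Type V collagen, which starts and thins the fibres of type I, was next among the fibrillar chains, with means over all libraries of 268 TPM for Col5a2, 161 TPM for Col5a1 and 116 TPM for Col5a3. Col6a3, the large chain of type VI, averaged 282 ± 201 TPM in BAT, 272 ± 136 TPM in RWAT, 190.4 ± 73.0 TPM in IWAT and 183 ± 128 TPM in EWAT. Col15a1 averaged 222 ± 86.9 TPM in BAT, 170.1 ± 44.4 TPM in RWAT, 221 ± 92.8 TPM in IWAT and 190.2 ± 118 TPM in EWAT, and Col18a1, the source of endostatin, averaged between 49.2 TPM in EWAT and 71.8 TPM in BAT. All of these depots overlapped. Col12a1, a fibril-associated collagen of tissues under tension, had the widest range within a single depot among the abundant members. It was at 37.0, 181 and 22.1 TPM in BAT, 48.0, 126 and 40.5 TPM in RWAT, 1.78, 56.0 and 45.4 TPM in IWAT and 145, 20.8 and 20.3 TPM in EWAT. The IWAT libraries alone spanned a 31.5-fold range. Col8a1 spanned 29.2-fold in IWAT, and its ranges in BAT, RWAT and EWAT were wider than those of Col12a1. For both genes IWAT 1 was the lowest library. Col16a1, also fibril-associated, averaged between 27.0 TPM in IWAT and 42.5 TPM in BAT.

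The remaining members were at low levels. Col7a1 averaged 2.10 ± 2.12 TPM in BAT, 0.927 ± 0.350 TPM in RWAT, 0.670 ± 0.350 TPM in IWAT and 1.83 ± 1.40 TPM in EWAT. The membrane-bound Col23a1, Col17a1 and Col25a1 averaged 0.708, 0.278 and 0.226 TPM over all libraries. Col26a1 and Col28a1, which belong to no larger class, averaged 4.82 and 1.49 TPM, and Col10a1, the collagen of growth-plate cartilage, averaged 0.766 TPM. Besides Col9a1, 4 collagens were too low to test, namely Col13a1 with 68 counts in all, Col19a1 with 42, Col2a1 with 16 and Col9a2 with 13. Of these 5, Col2a1, Col9a1 and Col9a2 are chains of cartilage collagens.

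The main paired chains of types I, IV, V and VI kept close ratios in all libraries, also where their levels moved by severalfold. The ratio of Col1a1 to Col1a2 TPM lay between 0.926 and 1.19, that of Col4a1 to Col4a2 between 1.72 and 2.12, that of Col5a1 to Col5a2 between 0.535 and 0.653 and that of Col6a1 to Col6a2 between 1.00 and 1.32. Across the 12 libraries these ratios spanned 1.28-fold, 1.23-fold, 1.22-fold and 1.32-fold, while the summed level of all collagens spanned 5.51-fold. Col6a3 to Col6a1 was looser, between 0.762 and 1.93. Col4a5 to Col4a6 ranged from 5.02 to 55.4 and Col8a1 to Col8a2 from 7.38 to 97.4. In both of these pairs 1 chain is at low counts, so counting error adds to the range. The ratio of Col4a5 to Col4a6 was 15.4, 11.7 and 5.59 in RWAT, 21.3, 25.8 and 23.6 in IWAT and 6.18, 5.02 and 5.78 in EWAT. The IWAT libraries lay above every library of RWAT and EWAT. The BAT libraries were at 15.9, 55.4 and 14.0, the highest of them from only 5 counts of Col4a6.

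**Figure D3:**
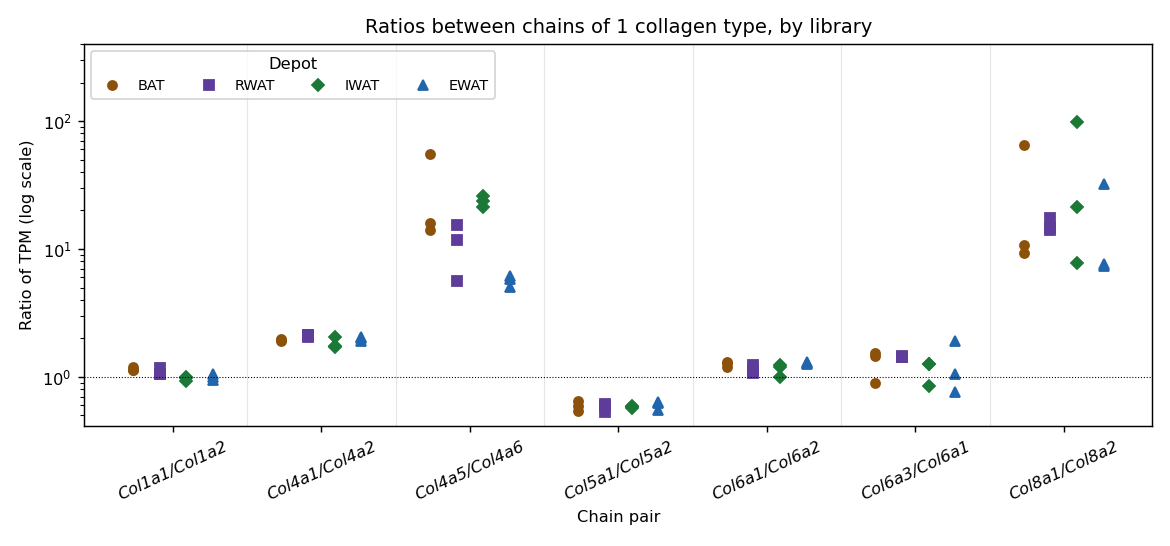
Ratio of deposited TPM between chains of 1 collagen type (log scale), 1 point per library, with symbols by depot (n = 3 each). The pairs of types I, IV (Col4a1/Col4a2), V and VI (Col6a1/Col6a2) stay within 1.32-fold over all libraries, while Col4a5/Col4a6 spans 11.0-fold and Col8a1/Col8a2 spans 13.2-fold.

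Type IV has 6 chains in 3 pairs, and members of a pair lie head to head in the genome. In GENCODE M21 on GRCm38, Col4a1 and Col4a2 lie on chromosome 8 with gene starts 21 bases apart, Col4a3 and Col4a4 on chromosome 1 with starts 72 bases apart, and Col4a5 and Col4a6 on chromosome X with starts 1309 bases apart. The promoter windows of 5 of these chains (250 bases before to 50 bases after the start, RefSeq, GRCm38.p6) are shown as a description of the start regions of these paired genes. The windows of Col4a5 and Col4a6 do not overlap, and no ratio of Col4a3 to Col4a4 was taken. Coordinates are chr8:11312777-11313076 on the minus strand for Col4a1, chr8:11312555-11312854 on the plus strand for Col4a2, chr1:82586800-82587099 on the minus strand for Col4a4, chrX:141475169-141475468 on the plus strand for Col4a5 and chrX:141474027-141474326 on the minus strand for Col4a6. Each is read 5′ to 3′ on the strand of its gene, and capitals mark the GC box (GGGCGG or, on the other strand, CCGCCC), the CCAAT box (CCAAT or ATTGG) and the letters TATAAA or TTTATA. No match overlaps a match of another of these motifs.
Col4a1: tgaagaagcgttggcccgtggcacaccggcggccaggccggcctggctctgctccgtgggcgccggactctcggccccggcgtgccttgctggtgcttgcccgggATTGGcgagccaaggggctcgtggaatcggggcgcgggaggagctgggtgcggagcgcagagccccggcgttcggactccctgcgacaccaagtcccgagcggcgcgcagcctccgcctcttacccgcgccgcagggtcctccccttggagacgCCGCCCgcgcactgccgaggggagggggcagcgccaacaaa
Col4a2: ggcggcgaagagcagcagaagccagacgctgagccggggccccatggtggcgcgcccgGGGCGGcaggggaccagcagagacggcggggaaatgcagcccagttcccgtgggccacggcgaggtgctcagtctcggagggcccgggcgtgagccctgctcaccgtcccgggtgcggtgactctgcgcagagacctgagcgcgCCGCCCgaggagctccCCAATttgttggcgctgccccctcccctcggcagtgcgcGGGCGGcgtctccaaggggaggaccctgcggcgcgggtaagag
Col4a4: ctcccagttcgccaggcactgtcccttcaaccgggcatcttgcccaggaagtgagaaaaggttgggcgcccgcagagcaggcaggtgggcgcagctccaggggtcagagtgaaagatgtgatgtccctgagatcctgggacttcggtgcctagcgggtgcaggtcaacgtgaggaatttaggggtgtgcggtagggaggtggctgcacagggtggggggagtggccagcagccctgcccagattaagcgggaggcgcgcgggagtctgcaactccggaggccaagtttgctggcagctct
Col4a5: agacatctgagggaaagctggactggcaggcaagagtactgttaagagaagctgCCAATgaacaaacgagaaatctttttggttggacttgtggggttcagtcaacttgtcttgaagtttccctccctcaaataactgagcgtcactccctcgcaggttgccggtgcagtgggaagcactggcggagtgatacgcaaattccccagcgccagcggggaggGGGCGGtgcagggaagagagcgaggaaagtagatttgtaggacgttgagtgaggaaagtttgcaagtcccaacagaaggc
Col4a6: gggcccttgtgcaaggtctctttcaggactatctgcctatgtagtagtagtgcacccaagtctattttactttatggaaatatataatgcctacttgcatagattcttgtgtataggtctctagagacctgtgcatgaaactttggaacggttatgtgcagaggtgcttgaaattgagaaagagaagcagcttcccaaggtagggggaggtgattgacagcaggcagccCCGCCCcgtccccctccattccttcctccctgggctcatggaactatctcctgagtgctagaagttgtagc
The windows of Col4a1 and Col4a2 overlap, and the GC box of Col4a1 is the last GC box of Col4a2 read on the other strand. The window of Col4a1 holds 1 GC box and 1 CCAAT box, that of Col4a2 holds 3 and 1, that of Col4a5 holds 1 and 1, that of Col4a6 holds 1 GC box and no CCAAT box, and that of Col4a4 holds neither. None of the 5 holds TATAAA. Among 32851 mouse promoter windows of this length, 35.7% hold a GC box, 37.4% a CCAAT box and 13.6% TATAAA. The share of G and C was 74.0% for Col4a1, 73.7% for Col4a2, 63.3% for Col4a4, 52.7% for Col4a5 and 48.3% for Col4a6, against a median of 52.7% over all windows. A match is a description of these letters and no sign of a bound factor.

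The level of the type IV chains differed by pair. Col4a1 and Col4a2, the chains of basement membranes in most tissues, made up 98.0% to 99.7% of the type IV TPM of every library. Col4a1 was at 255, 756 and 408 TPM in BAT, 329, 513 and 288 TPM in RWAT, 283, 443 and 791 TPM in IWAT and 696, 141 and 231 TPM in EWAT. Col4a2 was at 128, 389 and 213 TPM in BAT, 156, 249 and 136 TPM in RWAT, 161, 217 and 459 TPM in IWAT and 365, 68.7 and 114 TPM in EWAT. All 4 depots overlapped for both chains. Col4a3 and Col4a4, best known from the kidney filter, together took between 0.0140% and 0.528%. Col4a5 and Col4a6, which in smooth muscle and skin form a network of their own with Col4a1 and Col4a2, took between 0.192% and 1.99%.

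**Figure D4:**
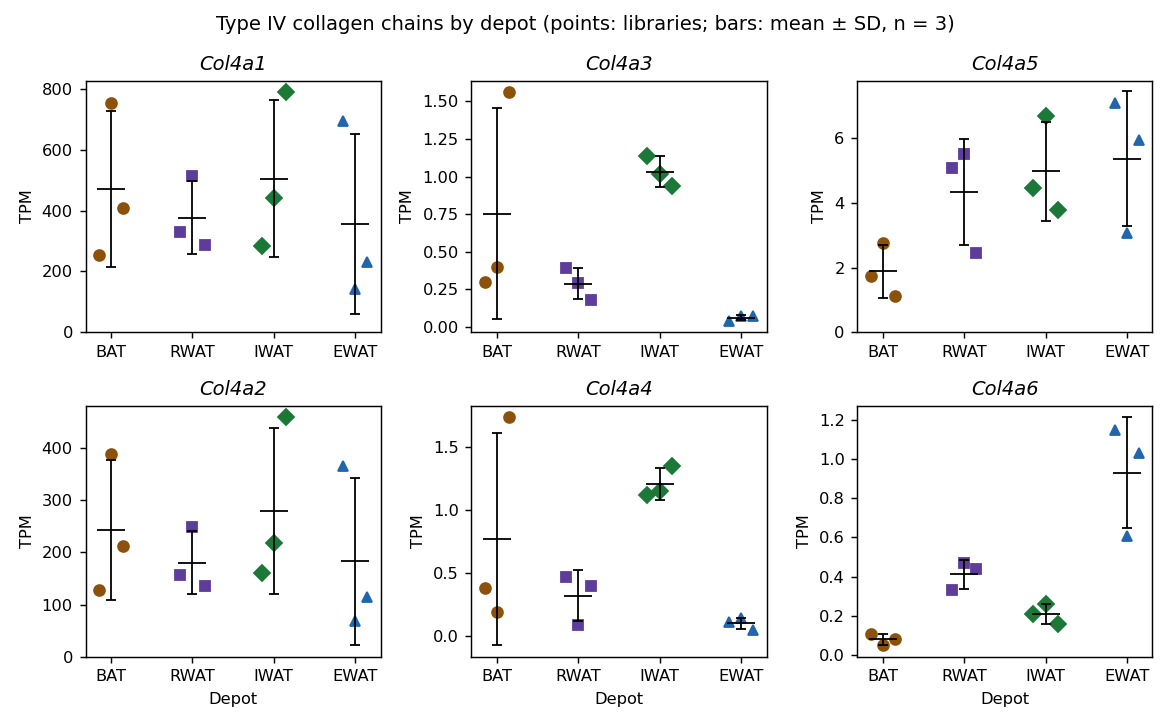
Deposited TPM of the 6 type IV collagen chains by depot, with 1 point per library and bars at the mean ± SD (n = 3). Col4a6 is lowest in BAT (0.05 to 0.11 TPM) and highest in EWAT (0.61 to 1.15 TPM) with no overlap between any depots, while Col4a1 and Col4a2 overlap across all 4.

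Brown fat was compared with the mean of the 3 white depots and with each of them, which asks how the collagens of brown and white fat differ. These comparisons share the BAT libraries and are not independent. Col4a6 fell in BAT against EWAT and was the single collagen called in any of the 4 (edgeR quasi-likelihood F test, Benjamini-Hochberg adjusted p below 0.05 over all 18942 genes tested). It was at 0.11, 0.05 and 0.08 TPM in BAT, 0.33, 0.47 and 0.44 TPM in RWAT, 0.21, 0.26 and 0.16 TPM in IWAT and 1.15, 0.61 and 1.03 TPM in EWAT. The depots do not overlap and run in the order BAT, IWAT, RWAT, EWAT from low to high. The values rest on 11, 5 and 7 expected counts in BAT and 102, 93 and 128 in EWAT. Col4a6 (ENSMUSG00000031273) spans chromosome X, 141165403 to 141474076, on the minus strand.

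In BAT against EWAT the log2 fold change of Col4a6 was -3.73 ± 0.48 (SE), with an adjusted p of 0.0210 by edgeR. Called collagens were 1 of 39, with 0.0845% of all genes called. At an unadjusted edgeR p below 0.05 there were 9 collagens, with 9.41% of all genes. The call rested on the full set of libraries. Without BAT 1, BAT 3, EWAT 1, EWAT 2 or EWAT 3 the edgeR adjusted p was between 0.0741 and 0.144, at log2 fold changes of -4.08 to -3.62. Without BAT 2, 3 collagens were called, Col4a3, Col4a5 and Col4a6. With both EWAT 1 and BAT 2 left out, a pair chosen with earlier results known, the Col4a6 adjusted p was 0.0830.

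No collagen was called in BAT against the white mean (0.0528% of all genes called), BAT against IWAT (0.0264%) or BAT against RWAT (0.0158%) by edgeR. At an unadjusted edgeR p below 0.05 there were 6 collagens against the white mean, 7 against IWAT and 3 against RWAT, with 4.66%, 12.4% and 4.36% of all genes. DESeq2 called 3, 1 and 1 collagens, with 0.95%, 1.69% and 0.238% of all genes, and limma-voom called none in each. Without BAT 2, edgeR called 1 collagen against the white mean, Col4a5. The member with the smallest p was Col4a6 against the white mean, at -2.47 ± 0.42 (SE) (edgeR adjusted p = 0.122), and against RWAT, at -2.25 ± 0.47 (SE) (edgeR adjusted p = 0.991). Against IWAT it was Col4a5, at -1.11 ± 0.26 (SE) (edgeR adjusted p = 0.243). Col4a5 was at 1.75, 2.77 and 1.12 TPM in BAT, 5.07, 5.51 and 2.46 TPM in RWAT, 4.48, 6.70 and 3.77 TPM in IWAT and 7.11, 3.06 and 5.95 TPM in EWAT. Its BAT libraries lay below all libraries of IWAT and EWAT and overlapped those of RWAT, where RWAT 3 was lower than BAT 2. Against EWAT, Col4a5 was at -1.51 ± 0.26 (SE) and missed the threshold (edgeR adjusted p = 0.0806).

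The neighbouring chains of the other type IV pair had positive log2 fold changes in BAT against EWAT, and neither passed the edgeR test with all libraries. DESeq2 called both there, among 6 collagens (2.52% of all genes called), and edgeR called Col4a3 without BAT 2. Col4a3 was at 0.30, 0.40 and 1.56 TPM in BAT, 0.39, 0.29 and 0.18 TPM in RWAT, 1.14, 1.02 and 0.94 TPM in IWAT and 0.04, 0.07 and 0.07 TPM in EWAT. Col4a4 was at 0.38, 0.19 and 1.74 TPM in BAT, 0.47, 0.09 and 0.40 TPM in RWAT, 1.12, 1.15 and 1.35 TPM in IWAT and 0.11, 0.14 and 0.05 TPM in EWAT. Every BAT library was above every EWAT library for both chains, and BAT 3 stood far above BAT 1 and BAT 2. Their log2 fold changes in BAT against EWAT were 2.71 ± 0.79 (SE) and 2.98 ± 1.04 (SE), with edgeR adjusted p of 0.242 and 0.345. The fibre chains Col1a1 and Col3a1 were at 0.44 ± 0.58 (SE) and 1.11 ± 0.39 (SE) (edgeR adjusted p = 0.902 and 0.345). DESeq2 called Col3a1 in BAT against EWAT (2.52% of all genes called) and in BAT against the white mean (0.95%). It also called Col3a1 in the test of any depot difference (12.8% of all genes called). Over all 39 collagens the median log2 fold change was 0.36 for BAT against the white mean, 0.34 against EWAT, 0.43 against IWAT and 0.33 against RWAT, while over all genes the 4 medians lay between -0.02 and 0.02. These medians were not tested, and the collagens are not independent of each other. The summed collagen level was 14827 TPM in BAT 2. In BAT 1 and BAT 3 it was 4939 and 6502 TPM, within the white range of 2688 to 10148 TPM.

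Inguinal fat was compared with epididymal fat, the pair of a subcutaneous and a visceral depot, and here most of the calls were found. Col14a1 and Col4a3 rose in IWAT, and Col24a1, Col8a2 and Col4a6 fell. These 5 of 39 collagens are 12.8%, against 9.03% of all genes called, so the share is near the background. Of the calls, 2 were higher (4.43% of all genes) and 3 lower (4.6% of all genes), and 10 collagens had an unadjusted edgeR p below 0.05 (29.7% of all genes). The direction was mixed, with 19 collagens above and 20 below 0 and a median log2 fold change of -0.11, against 0.02 over all genes. Neither the main type I and III chains nor Col4a1, Col4a2 or the main type VI chains were called.

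Col14a1, a fibril-associated collagen that binds the surface of fibres, was at 41.0, 138 and 51.0 TPM in IWAT and 19.7, 20.2 and 11.9 TPM in EWAT. The depots do not overlap, and IWAT 2 was far above the other IWAT libraries. The log2 fold change was 1.68 ± 0.44 (SE), with an edgeR adjusted p of 0.0423. Col4a3 was at 0.94 to 1.14 TPM in all IWAT libraries and at 0.04 to 0.07 TPM in all EWAT libraries, from 100.99, 90.86 and 83.91 expected counts in IWAT and 5, 16 and 11 in EWAT. Its log2 fold change was 3.21 ± 0.80 (SE) (edgeR adjusted p = 0.0367). Its partner Col4a4, at 1.12 to 1.35 TPM in IWAT and 0.05 to 0.14 TPM in EWAT, was at 3.39 ± 1.05 (SE) and missed the threshold (edgeR adjusted p = 0.0626). Col4a4 is named as the genomic partner of Col4a3, after its values were seen. Col4a3 spans chromosome 1, 82586921 to 82722059, on the plus strand, and Col14a1 spans chromosome 15, 55307750 to 55520803, on the plus strand.

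Col24a1, a fibrillar collagen known from developing bone and cornea, was at 0.05, 0.56 and 0.31 TPM in IWAT and 6.31, 2.89 and 2.12 TPM in EWAT, from 6, 10 and 9 expected counts in IWAT and 425, 419 and 168 in EWAT. Every EWAT library was above every IWAT library, and the log2 fold change was -5.24 ± 1.10 (SE) (edgeR adjusted p = 0.0240). The RWAT libraries were at 0.36, 3.27 and 0.14 TPM, which overlaps both depots. Col8a2, a short-chain collagen of the cornea and of vessel walls, was at 0.09, 0.21 and 0.42 TPM in IWAT and 1.90, 1.57 and 1.14 TPM in EWAT, again without overlap. Its log2 fold change was -3.06 ± 0.60 (SE) (edgeR adjusted p = 0.0203). Its partner chain Col8a1 was at 0.70, 20.5 and 8.97 TPM in IWAT and 60.9, 12.1 and 8.41 TPM in EWAT, with overlap, and was at -1.67 ± 0.93 (SE) (edgeR adjusted p = 0.259). Col4a6, with 26, 24 and 10 counts in IWAT, was at -2.29 ± 0.44 (SE) (edgeR adjusted p = 0.0201). Col24a1 spans chromosome 3, 145292472 to 145552011, and Col8a2 spans chromosome 4, 126286793 to 126314330, both on the plus strand.

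The calls in IWAT against EWAT depended on single libraries. Without EWAT 3, IWAT 1 or IWAT 2 none of the 39 collagens was called, and the calls over all genes were then 121, 45 and 16, against 1710. Without EWAT 1, 2 collagens were called, Col4a6 and Col8a2. Over all such omissions the edgeR adjusted p of Col4a6 reached at most 0.0790, that of Col8a2 0.0819, that of Col24a1 0.0902, that of Col4a3 0.116 and that of Col14a1 0.134, and no direction was reversed. Col14a1 was also lost without BAT 1 or any 1 RWAT library, and Col4a3 without RWAT 1. Of the 5, the gene spans of Col14a1, Col24a1 and Col4a3 overlap annotated transcripts on the opposite strand, and that of Col4a6 overlaps opposite-strand processed pseudogenes. The spans of Col24a1, Col4a3 and Col4a6 also overlap annotated features on the same strand. Overlap of exons was not checked, and the strand setting of the counting was not given in the sources used here. Whether reads of these overlapping features, on either strand, were counted for the collagens is therefore not known.

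**Figure D5:**
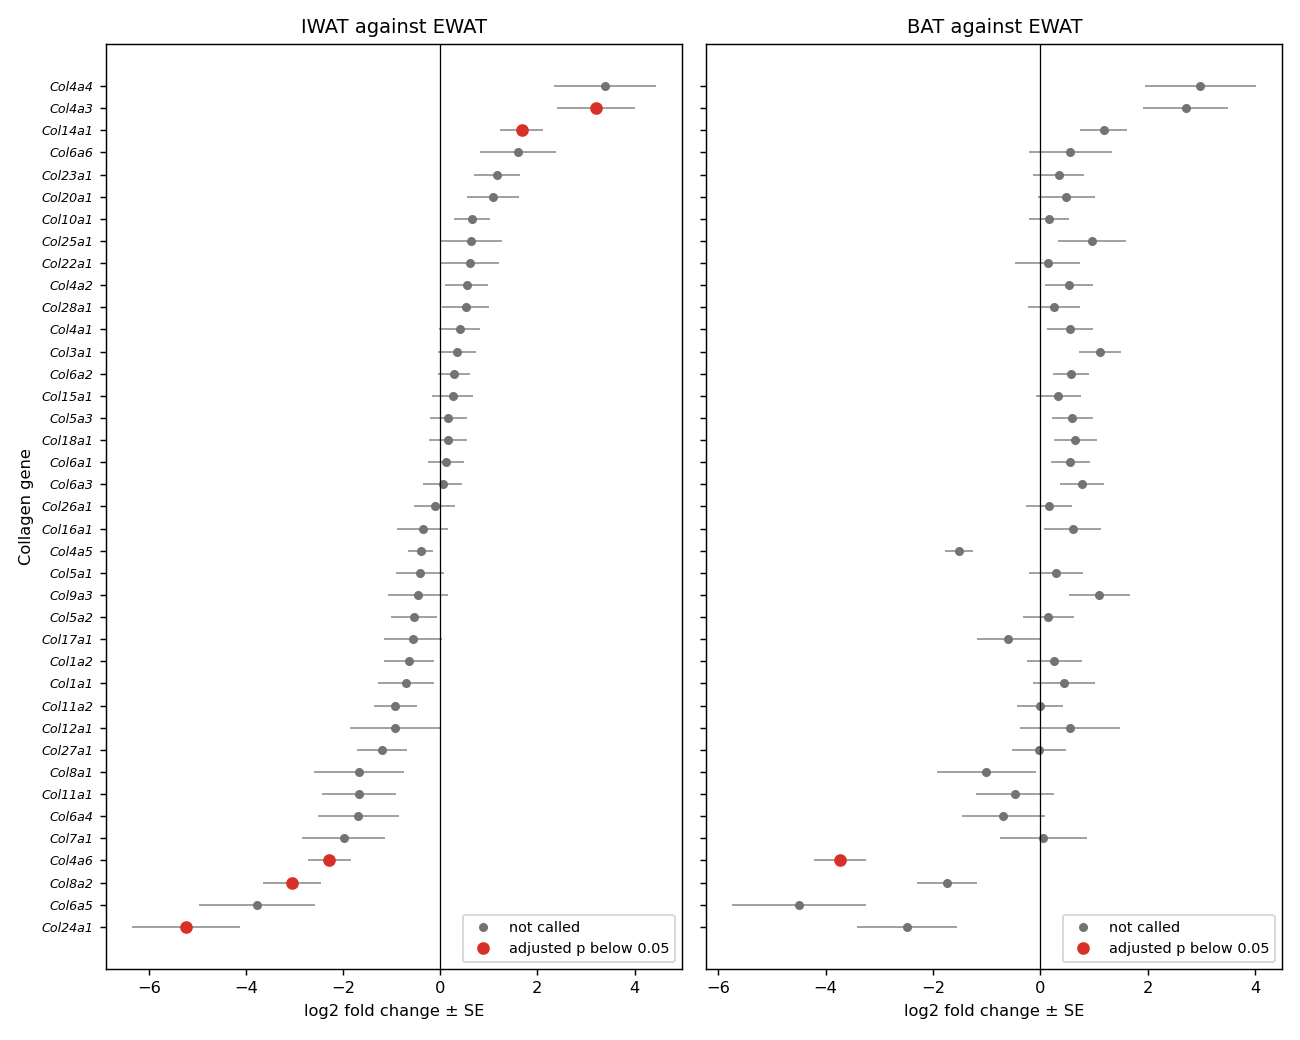
Log2 fold change ± SE of the 39 tested collagens in IWAT against EWAT (left) and BAT against EWAT (right), from edgeR, with called genes in red. Col24a1 at -5.24, Col8a2 at -3.06, Col4a6 at -2.29, Col14a1 at 1.68 and Col4a3 at 3.21 are called on the left, and Col4a6 at -3.73 alone on the right.

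Retroperitoneal fat was set against the other white depots, and no collagen passed the test in either comparison. In RWAT against EWAT, 0.00528% of all genes were called and no collagen by edgeR, 2 had an unadjusted edgeR p below 0.05 (4.52% of all genes), and DESeq2 (0.686% of all genes) and limma-voom called no collagen. The smallest p was that of Col4a6, at -1.48 ± 0.43 (SE) (edgeR adjusted p = 0.624), whose RWAT libraries all lay below those of EWAT. In RWAT against IWAT, 0% of genes were called by edgeR although 19.8% had an unadjusted p below 0.05, among them 6 collagens. DESeq2 called 1150 genes there, which is 6.07%, among them Col24a1 and Col8a2, and limma-voom called 0. Col8a2, the member with the smallest p, was at 0.67, 2.44 and 1.13 TPM in RWAT and 0.09, 0.21 and 0.42 TPM in IWAT, at 2.50 ± 0.59 (SE) (edgeR adjusted p = 0.128). These groups do not overlap. Col6a5, a minor type VI chain, was at 0.19, 1.65 and 2.67 TPM in RWAT, 0.15, 0.14 and 0.49 TPM in IWAT and 0.45, 3.58 and 3.38 TPM in EWAT, and was chosen for mention after its values were seen. It was not called by edgeR in a white depot comparison as reported, while in IWAT against EWAT it was called by DESeq2 (20% of all genes called), by edgeR with no filter on low counts, and by edgeR without EWAT 1 and BAT 2.

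In the test of any difference between the 4 depots, Col4a6 was the 1 collagen called of 39, with 0.211% of all genes called (edgeR adjusted p = 0.0297). At an unadjusted edgeR p below 0.05 there were 9 collagens, with 19.6% of all genes. For Col4a6 the highest depot mean was 11.6 times the lowest. Without BAT 1, BAT 3, EWAT 1, EWAT 2, EWAT 3 or IWAT 2 the edgeR adjusted p lay between 0.0571 and 0.119. Without BAT 2 the calls were 2, Col4a3 and Col4a6, and without RWAT 2 they were 2, Col24a1 and Col4a6. Without RWAT 1 and RWAT 3, the libraries rich in muscle markers, it was 0.0626, and without EWAT 1 and BAT 2 it was 0.0592. Both pairs of libraries were chosen with their values known.

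Markers of mesothelium, the cell sheet that covers visceral organs and visceral fat, were set beside Col4a6. Their summed level had its highest depot mean in EWAT, as Col4a6 did, and the order of the other depots and libraries was partly shared. The summed level of 7 markers was 1.96, 1.80 and 2.36 TPM in BAT, 1.95, 23.7 and 20.1 TPM in RWAT, 2.22, 2.74 and 1.79 TPM in IWAT and 38.0, 18.2 and 71.4 TPM in EWAT. Of these markers, 4 of 7 fell and 0 rose in IWAT against EWAT (9.03% of all genes called). In BAT against EWAT edgeR called 0 of 7 while 7 had an unadjusted p below 0.05 (9.41% of all genes). The sums in BAT and IWAT overlapped, and the Col4a6 levels of these depots did not. RWAT 1 had a marker sum within the range of BAT and IWAT and a Col4a6 level of 0.33 TPM, above every BAT and IWAT library. These are low levels. Col4a6 rested on 27 expected counts in RWAT 1 and on 5 to 26 in BAT and IWAT. Krt19, at 0.88 to 1.47 TPM, was the largest part of the marker sums of BAT and IWAT. Beside Col14a1 and Col4a3, the summed level of 7 fibroblast and progenitor markers was 4346, 6816 and 6372 TPM in IWAT and 428, 728 and 722 TPM in EWAT, and 6 of 7 rose. Gsn made up most of this sum, at 3297, 5394 and 5757 TPM in IWAT and 326, 551 and 558 TPM in EWAT. The 7 adipocyte markers summed to 16755, 19300 and 22726 TPM in IWAT and 1773, 5688 and 5702 TPM in EWAT, and 0 of 7 passed the test by edgeR, with 4 at an unadjusted p below 0.05 (29.7% of all genes). The 7 macrophage markers summed to 1259, 2258 and 2588 TPM in IWAT and 9576, 4924 and 6476 TPM in EWAT, with 1 of 7 called lower. Lyz2 made up most of this sum, at 988, 1714 and 1718 TPM in IWAT and 8396, 4444 and 4912 TPM in EWAT. The log2 fold change was negative for 6 of the 7 and positive for 1. Mrc1, at 86.8, 168 and 153 TPM in IWAT and 96.8, 48.5 and 106 TPM in EWAT, overlapped. The 7 Schwann cell markers summed to 16.1, 34.9 and 57.0 TPM in IWAT and 13.7, 5.79 and 13.5 TPM in EWAT, and 3 of the 5 tested rose. The 7 smooth muscle and pericyte markers summed to 96.0, 147 and 234 TPM in IWAT and 1119, 329 and 278 TPM in EWAT, with 1 called higher and 2 lower. Acta2, at 668, 158 and 164 TPM, and Tagln, at 394, 139 and 88.5 TPM, made up most of the EWAT sums. Over the 7 markers the log2 fold change was positive for 4 and negative for 3, with a median of 0.245, so the sums do not give the direction of most members. The part of these cell types in the collagen differences was not tested.

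Genes whose products make, bind or organise collagens were set beside the collagens, in 4 lists. By edgeR they gave calls in IWAT against EWAT, where 9.03% of all genes were called, and, for Lair1, in the test of any depot difference. The small leucine-rich proteoglycans, which coat collagen fibres and set their width, had 5 of 10 tested members higher in IWAT and none lower, with a median log2 fold change of 1.65. Decorin (Dcn), the best known of them, was at 485, 955 and 347 TPM in IWAT and 100.2, 98.2 and 108 TPM in EWAT, at 2.19 ± 0.44 (SE) (edgeR adjusted p = 0.0213). Podn was at 31.7, 77.3 and 33.8 TPM in IWAT and 2.33, 5.26 and 2.47 TPM in EWAT, and the other called members were Omd, Ogn and Ecm2. For each of Dcn and Podn, all IWAT libraries were above all EWAT libraries.

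The basement membrane partners of type IV, the laminins, nidogens and related proteins, had 6 of 17 members higher and 1 lower in IWAT, with a median of 0.93. The laminin chain Lama2, which is prominent in muscle and nerve, was at 33.0, 58.1 and 36.6 TPM in IWAT and 8.73, 7.68 and 4.84 TPM in EWAT, at a log2 fold change of 2.20 ± 0.37 (SE) (edgeR adjusted p = 0.0148). Lamb2, Nid1, Lamc3, Lama4 and Lamc1 were also called higher. Lama1, the laminin chain of early embryos, was called lower, at 0.01, 0 and 0.04 TPM in IWAT against 0.82, 0.16 and 0.18 TPM in EWAT. The type IV chains Col4a1 and Col4a2 were at 0.40 ± 0.43 and 0.54 ± 0.44 (SE) in log2, and neither was called.

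Of 30 tested genes of collagen biosynthesis, 2 were called higher and 1 lower in IWAT, a share near the 9.03% of all genes called, and the median log2 fold change was -0.64. DESeq2 called 10 of them, 3 higher and 7 lower, with 20% of all genes called. Pcolce2, an enhancer of procollagen cleavage, was at 46.7, 58.4 and 33.7 TPM in IWAT and 8.95, 4.11 and 3.55 TPM in EWAT, at a log2 fold change of 2.85 ± 0.53 (SE) (edgeR adjusted p = 0.0190). The galactosyltransferase gene Colgalt2 was the other higher one. Plod2, the lysyl hydroxylase that prepares stable cross-links, was lower, at 3.85, 14.6 and 9.49 TPM in IWAT and 92.5, 21.8 and 24.4 TPM in EWAT. Of 12 collagen receptors, Ddr2 and Antxr1 were called higher in IWAT. Lair1, an inhibitory collagen receptor of immune cells, was called lower, at 5.70, 7.35 and 9.31 TPM in IWAT and 66.8, 29.8 and 45.1 TPM in EWAT, at a log2 fold change of -2.62 ± 0.29 (SE) (edgeR adjusted p = 0.00451). All IWAT libraries were below all EWAT libraries, and this call held with each of the 12 libraries left out in turn. It was also called in the test of any depot difference (edgeR adjusted p = 0.0236), a call lost without any 1 library of IWAT or EWAT. The other partner calls in IWAT against EWAT were all lost without EWAT 3, IWAT 1 or IWAT 2, and those of the 5 proteoglycans also without EWAT 1. In the BAT comparisons and in RWAT against IWAT or EWAT, edgeR called none of the members of these 4 lists, and the counts at an unadjusted p below 0.05 were read against those of all genes. In BAT against EWAT these were 9 of 17 basement membrane partners (9.41% of all genes). Against the white mean they were 5 of 17 (4.66% of all genes) and against RWAT 4 of 17 (4.36%). In BAT against IWAT they were 5 of 10 proteoglycans and 8 of 30 biosynthesis genes (12.4% of all genes). In RWAT against IWAT they were 7 of 17 basement membrane partners, 6 of 10 proteoglycans and 6 of 12 receptors (19.8% of all genes). The other counts in these comparisons were at most 3 in a list. Beyond 4 names a list, Lama1, Lama4, Lamc1 and Ecm2 were named after their values were seen.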

How the data were processed

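Total RNA depleted of ribosomal RNA was sequenced from 12 libraries. Per the submitters' processing notes, the authors used Trimmomatic 0.36, RSEM 1.3.0 and DESeq2 1.10.1, with genome build GRCm38.p4. The aligner, annotation release and strand setting are not given in the sources used here. Per the file headers, the deposited tables hold the RSEM expected count of each gene, an estimated count not normalized between libraries. They also hold the deposited TPM, which the authors' RSEM run scaled by effective length and to a fixed sum per library. The deposited effective length in bases entered 1 alternative alone.

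Expected counts were rounded to whole numbers, filtered with filterByExpr (minimum count 10) and normalized by the TMM method, whose factors ran from 0.846 to 1.14. A single model held all 12 libraries, with the depot as the only term. Each comparison used the two-sided quasi-likelihood F test of edgeR 4.0.16 in R 4.3.3, p-values were adjusted by Benjamini-Hochberg over 18942 genes, and a gene was called at an adjusted p below 0.05. Common biological variation between libraries of a depot came to a coefficient of 0.385. The 7 comparisons and a test of any depot difference were fitted together, and the procedure was tested on simulated data. Levels, class shares and chain ratios are deposited TPM and have no test. A count of 3 was taken as the floor, which covers counting error only. The SE of a log2 fold change comes from the edgeR fit and includes the spread between libraries. Symbols were read from the deposited gene identifiers, positions from GENCODE M21 and promoters from RefSeq, which held 35 of the 44 genes. Alternatives were other size factors (RLE, upper quartile), no filter, 1 CPM in 3 libraries, DESeq2 1.42.0, limma-voom of limma 3.58.1, the replicate number as a block, an effective length offset, a robust spread (added after the data were seen), omission of each library and of 2 pairs of libraries. The members, gene lists and alternatives were chosen with earlier results of these data known.

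Named collagens were those called in any comparison, the 3 with the highest mean TPM in each class, the chains of the ratios and, where none was called, the one with the smallest p. For each partner list up to 4 members were named. Genes outside this rule are named as such.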

Additional observations from a re-analysis of the deposited data

Results flagged for a closer look

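Among the 43 collagens with counts, 5 had 1 white fat library that stood apart from the other 8 by the gap between the highest value and the next one, relative to the range (Dixon's criterion). The limit used gives such a gap by chance in about 1 of 20 groups drawn from 1 normal distribution. These TPM values were not on a log scale and pooled different depots, so that rate does not apply to them. Col14a1 was at 137.7 TPM in IWAT 2 and at 50.98 TPM in the next library. IWAT 2 was also the highest for Col20a1, with 1.21 TPM against 0.57 TPM in the next library, and for Col13a1, with 0.5 TPM against 0.23 TPM. Col17a1, a collagen of epithelial hemidesmosomes, was at 0.92 TPM in RWAT 2 and at 0.41 TPM in the next library. Col7a1 was at 3.32 TPM in EWAT 1 and at 1.62 TPM in EWAT 2. Apart from Col14a1 and Col7a1, these genes had at most 46.05 expected counts in the library concerned.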

How the results depend on the processing

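In BAT against the white mean, where edgeR called no collagen, no filter on low counts gave 1 and DESeq2 3, and omitting 1 library gave 0 to 1. In BAT against EWAT, with 1 call, no filter gave 2, DESeq2 6, the replicate block 0 and omission of EWAT 1 with BAT 2 gave 0, and omitting 1 library gave 0 to 3. DESeq2 called 1 collagen in BAT against IWAT, 1 in BAT against RWAT and 2 in RWAT against IWAT, where edgeR called none. In IWAT against EWAT, with 5 calls, no filter gave 8, the replicate block 3 (Col24a1, Col4a6 and Col8a2), and omitting 1 library 0 to 7. In the test of any depot difference, with 1 call, no filter gave 4, DESeq2 9, and the replicate block, omission of EWAT 1 with BAT 2 and omission of RWAT 1 with RWAT 3 each gave 0, while omitting 1 library gave 0 to 2. The cause of these shifts was not tested. Other size factors, the 1 CPM filter, limma-voom, the length offset and the robust spread left each count within 1.5 times. Col4a6, Col4a5, Col14a1, Col24a1, Col8a2 and Col4a3 kept their direction in 23 alternatives in the comparisons where each was called or had the smallest p. Among the partners in IWAT against EWAT, the replicate block called 2 proteoglycans (Dcn and Omd, against 5), 2 basement membrane partners (Lama2 and Lamb2, against 7), 2 biosynthesis genes and 2 receptors (against 3 each). Of the proteoglycans 1, Dcn, was called without EWAT 1 and BAT 2, and likewise without RWAT 1 and RWAT 3, and each of these omissions left 1 biosynthesis gene, Pcolce2. DESeq2 called 10 biosynthesis genes. Libraries with the same replicate number deviated together, with every correlation over 0.1, in 1 of 6 depot pairs only, so the numbers were not taken as a pairing. By expected counts in place of TPM, the fibrillar share was 76.7% in BAT, the beaded filament share 9.48% in BAT and 10.5% in IWAT, and the fibril-associated share 2.74% in BAT, 3.24% in RWAT, 3.23% in IWAT and 2.51% in EWAT. Depth limits Col4a6, Col4a3 and Col24a1, which had as few as 5, 5 and 6 counts in a library.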

Other observations

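Col6a6, a minor chain of type VI collagen, was at 1.06, 0.84 and 0.82 TPM in BAT, 1.45, 0.73 and 1.93 TPM in RWAT, 2.05, 3.51 and 1.79 TPM in IWAT and 0.09, 0.78 and 0.73 TPM in EWAT. Every IWAT library lay above every EWAT library, and the log2 fold change of 1.60 ± 0.79 (SE) missed the threshold (edgeR adjusted p = 0.199). Col6a5, the other minor chain of this type with an appreciable level, was at -3.77 ± 1.19 (SE) in the same comparison (edgeR adjusted p = 0.0655), and its IWAT and EWAT libraries overlapped. The membrane-bound Col23a1 was at 1.5, 0.79 and 2.31 TPM in IWAT and 0.66, 0.20 and 0.32 TPM in EWAT, without overlap, at 1.17 ± 0.48 (SE) (edgeR adjusted p = 0.128). Col6a6 and the contrast with Col6a5 were picked after the values were seen.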
